A study of Mus musculus with 42 samples.

Results

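The transcripts examined here are 9 genes of fasting and fatty acid oxidation, Ppara, Pdk4, Cpt1a, Cpt1b, Acadm, Angptl4, Fgf21, Acot1 and Ucp3, chosen by gene name out of 26653 genes in the deposited expression table, and all 9 were listed. They were followed in liver, heart, eyes, prostate, spleen, testes and mouse embryonic fibroblasts (MEFs, cultured cells from embryos) of wild type and Tug1-/- male mice. The knockout allele, Tug1_tm1.1Vlcg, has a lacZ reporter in the place of the gene body of the long noncoding RNA gene Tug1. The Tug1 promoter and first exon remain. Knockouts carry this allele on both chromosomes, while wild types have 2 normal Tug1 alleles and no lacZ. Both genotypes were on a C57BL/6J background without the Neo cassette. The knockout allele is in the germline, so all cells of a knockout carry it. Polyadenylated RNA of 42 samples, 22 wild type and 20 knockout, had been sequenced, with 4 wild type and 3 knockout samples for testes, 3 and 2 for prostate and 3 and 3 for each other tissue. MEFs, from male littermate embryos, had been taken at passage 2, and the paper describes the other tissues as adult. For the mice that gave the tissues, feeding state, time of day and age in days at harvest are not given in the sources used here.

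When food is withheld, fat stores release fatty acids, and liver, heart and muscle burn them in place of glucose. In liver the nuclear receptor PPAR-alpha binds fatty acids and switches on genes for their uptake, their entry into mitochondria and their breakdown by beta-oxidation, and some of its targets are secreted to inform other organs. Heart muscle relies on fatty acids at all times and uses the muscle forms of several of the same enzymes.

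Each value below is 1 number per genotype and tissue in FPKM (fragments scaled to transcript length and to library size), in which the replicates had been combined. No spread between mice, no depth and no test between genotypes can therefore be given, and a difference is reported as its size only. The size is log2((KO + 0.1)/(WT + 0.1)), which understates differences of genes with low values, and a difference was counted when it passed 1.5-fold in a gene with at least 1 FPKM in either genotype. Of the 63 combinations of gene and tissue, 45 reached 1 FPKM and 9 of these passed the 1.5-fold limit, 7 higher and 2 lower in knockout. Over all genes and the 7 tissues together, 3.89% of 91463 such combinations passed it, 2.4% higher and 1.48% lower. The 9 genes had been chosen with earlier results of these data known, so setting their count beside this share does not test them as a set. Tug1 itself was between 11.2 FPKM in heart and 27.7 FPKM in testes in wild type and at most 0.402 FPKM in knockout, and lacZ was at or under 0.00894 FPKM in every wild type tissue and between 0.355 and 54.3 FPKM in knockout, so the labels held in all 7 tissues. Because tissues were bulk preparations, fewer cells of a type and less RNA per cell cannot be told apart in any difference below.

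The largest differences of the 9 genes belonged to Fgf21, in liver, and Pdk4, in eyes, and the 250 bases before their RefSeq transcription start (GRCm38.p6) are shown for that reason. The Fgf21 stretch is chr7:45615491-45615740 and the Pdk4 stretch chr6:5496279-5496528, both on the minus strand and printed 5′ to 3′ in the direction of transcription. Capitals mark matches to any of 6 short motifs that were searched on both strands.
Fgf21: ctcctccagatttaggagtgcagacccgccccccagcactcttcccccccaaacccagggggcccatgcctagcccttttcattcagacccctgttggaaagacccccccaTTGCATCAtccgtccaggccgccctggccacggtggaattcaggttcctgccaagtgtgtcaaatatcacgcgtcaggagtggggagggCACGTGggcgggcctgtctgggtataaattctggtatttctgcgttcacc
Pdk4: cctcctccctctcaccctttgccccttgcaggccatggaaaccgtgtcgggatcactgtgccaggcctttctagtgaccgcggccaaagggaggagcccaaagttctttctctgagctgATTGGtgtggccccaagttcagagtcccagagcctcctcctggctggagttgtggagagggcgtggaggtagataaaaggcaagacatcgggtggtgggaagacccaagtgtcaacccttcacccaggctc

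The motifs were the amino acid response element TGATGNAA, which the stress factor ATF4 can bind, the cyclic AMP response element TGACGTCA, the FOXO site GTAAACA, the E-box CACGTG, the CCAAT box, and DR1, the direct repeat of AGGNCA with 1 base between the copies to which PPAR-alpha binds with its partner RXR. Windows of 7 of the 9 genes were present in the RefSeq set, all but Cpt1b and Angptl4. In the Fgf21 stretch a minus-strand match to the amino acid response element begins 139 bases before the start and an E-box 50 bases before it. Neither motif was found in the other 6 windows. They occur in 3.45% and 6.02% of all 32851 promoter windows of this length. The Pdk4 stretch holds only a reverse CCAAT box, 131 bases before the start, and this motif was also in the windows of Acot1 and Cpt1a and in 33.8% of all. No match to DR1, the cyclic AMP response element or the FOXO site was present in the 7 windows, against shares of 0.338%, 1.55% and 3.17% of all windows. A match describes letters only, and many regulatory sites lie outside so short a stretch.

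Levels in wild type separated the 9 genes by tissue before any comparison of genotypes. The summed FPKM of all genes differed up to 2.97-fold between groups, being largest in wild type liver, so the order of tissues was also read after rescaling each group to a total of 1000000. With no replicate values, neighbours in these orders cannot be compared against a spread. Ppara, the receptor, reached 148 FPKM in liver and 13.3 FPKM in heart, against 3.42 FPKM for eyes and 1.396 FPKM for prostate, and was under 1 FPKM in testes, MEFs and spleen. Acadm, the medium-chain acyl-CoA dehydrogenase that performs a first step of beta-oxidation, was the most abundant of the 9 genes in heart, at 712 FPKM, and in liver, at 379 FPKM, and its own lowest wild type level was 8.99 FPKM, in testes. Rescaling left heart before liver for Acadm, at 1169 and 337 rescaled FPKM.

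Cpt1a and Cpt1b encode the liver and muscle forms of carnitine palmitoyltransferase 1, which loads long-chain fatty acids onto carnitine for entry into mitochondria, and they divided the tissues between them. Cpt1a was highest in liver, at 169.5 FPKM, and between 10.3 and 33.8 FPKM in the other 6 wild type tissues. Cpt1b was 249 FPKM in heart and 149 FPKM in testes, 8.77 FPKM in eyes, and at most 0.598 FPKM in liver, spleen, MEFs and prostate. As a share of both, Cpt1b made up 92.7% in wild type and 93.0% in knockout heart and 93.5% and 91.3% in testes. In liver it made up 0.338% and 0.279%. The form that dominates each tissue was thus the same in both genotypes, and eyes had the largest difference in share, 20.6% in wild type and 32.6% in knockout.

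**Figure D1:**
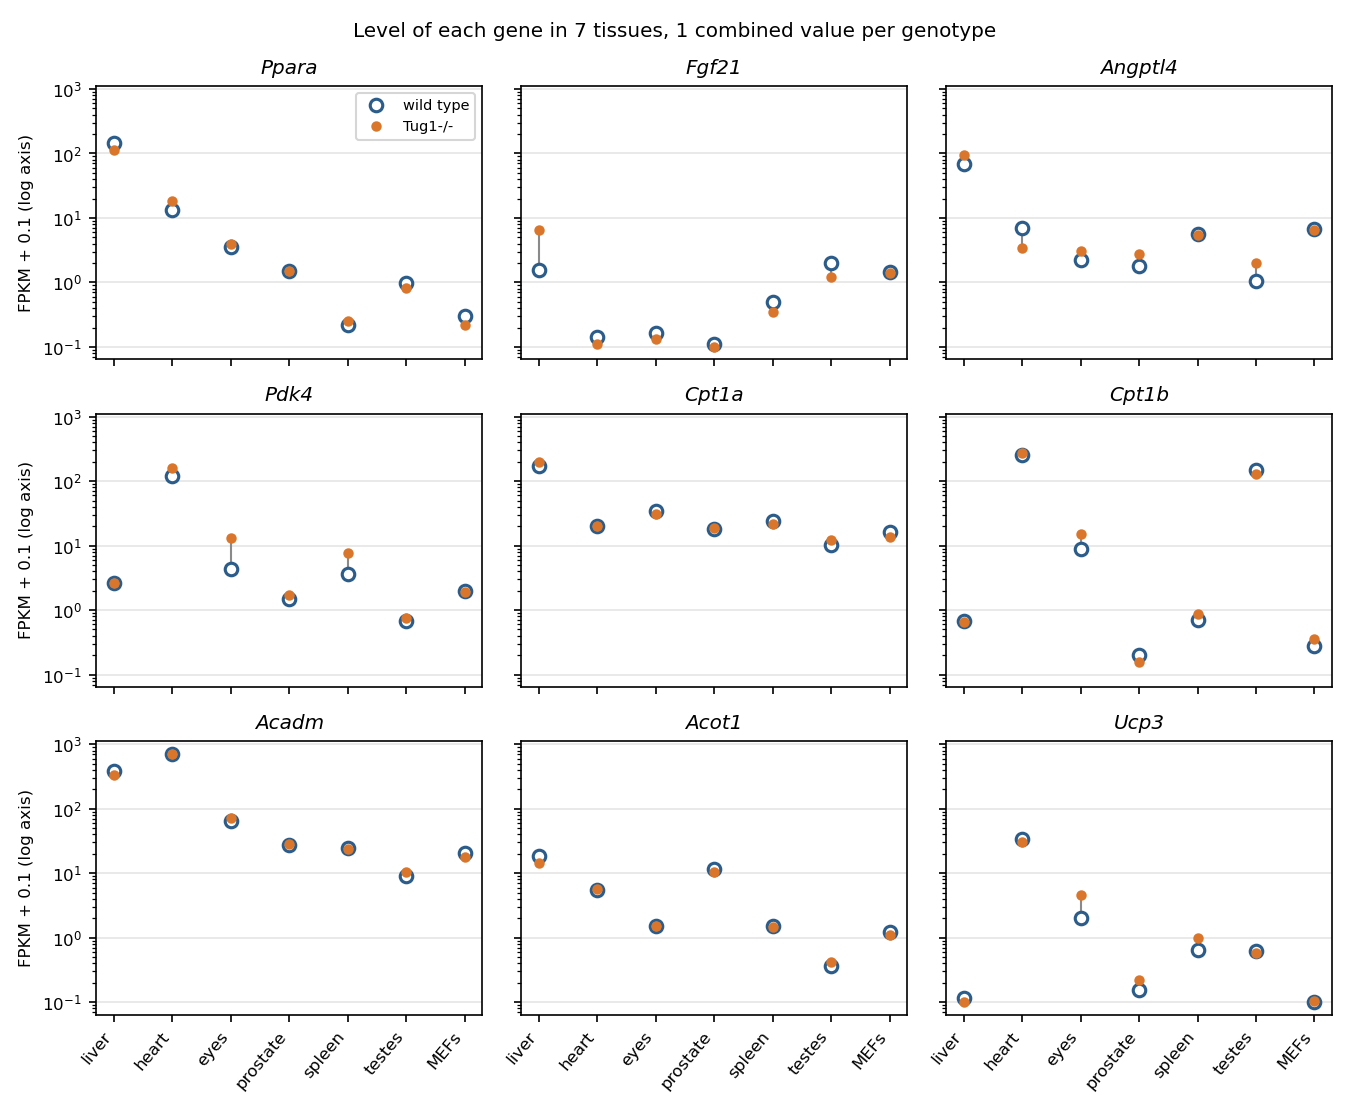
Level of the 9 genes in 7 tissues, as FPKM plus 0.1 on a log axis; open circles are wild type, filled circles knockout, each 1 combined value without an error, and grey lines join the genotypes. Cpt1b stands at 249 FPKM in heart and 149 FPKM in testes of wild type, and the widest gaps between genotypes are those of Fgf21 in liver and Pdk4 in eyes.

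Pdk4 and Ucp3 were chiefly heart transcripts. Pdk4, a kinase that switches off pyruvate dehydrogenase and so spares glucose, was 118 FPKM in heart and at most 4.23 FPKM in each other wild type tissue. Ucp3, a mitochondrial inner membrane protein of muscle induced when fatty acids are plentiful, was 33.7 FPKM in heart, 1.93 FPKM in eyes and under 1 FPKM elsewhere. Angptl4, a secreted inhibitor of lipoprotein lipase, was led by liver with 68.6 FPKM and lay between 0.956 and 6.80 FPKM in the other wild type tissues. Acot1, a cytosolic thioesterase that cleaves acyl-CoA, was 18.5 FPKM in liver and 11.6 FPKM in prostate, an order that rescaling reversed, to 16.5 and 19.1 rescaled FPKM. Fgf21, a hormone that liver releases in fasting and under stress, was low throughout wild type, with 1.89 FPKM in testes, 1.48 in liver, 1.37 in MEFs and at most 0.391 in the others, and rescaling put MEFs first, at 2.72 rescaled FPKM. Reads of Acot1 can be shared with its near copies Acot2 to Acot6, and those of Cpt1b with the annotated readthrough gene Gm44502, which covers all 9459 bp of it on the same strand, so both levels are uncertain. Without strand, Ucp3 cannot be separated from the antisense Gm10603 over 1857 bp.

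In liver 1 of the 9 genes passed the limit. Fgf21 was 1.48 FPKM in wild type and 6.47 FPKM in knockout, 4.15-fold higher (log2 2.05), a larger size of difference than that of 99.7% of the 11875 liver genes at 1 FPKM or more. Across those genes 2.8% were more than 1.5-fold higher and 2.47% more than 1.5-fold lower in knockout. Knockout liver was also the only group of the 14 with Fgf21 above 2 FPKM as deposited. After rescaling it was highest, at 6.42 rescaled FPKM. MEFs, at 2.72 in wild type and 2.73 in knockout, and wild type testes, at 2.60, then also lay above 2. Fgf21 is a gene of 1 annotated transcript, on chromosome 7 of GRCm38 between 45613886 and 45615490 (minus strand).

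The other 8 genes stayed within 1.5-fold in liver. Ppara was 148 FPKM in wild type and 112 FPKM in knockout (log2 −0.40). Angptl4 was 68.6 and 95.7 FPKM (log2 0.48). Acot1 was 18.5 and 14.3 FPKM (log2 −0.38). Among these PPAR-alpha and its targets the values thus lay on both sides of equality. Cpt1a was 169.5 and 194.5 FPKM (log2 0.20) and Acadm 379 and 332 FPKM (log2 −0.19), while Pdk4 was 2.49 and 2.52 FPKM. Cpt1b, at 0.574 and 0.544 FPKM, and Ucp3, at 0.0158 and 0, did not reach 1 FPKM. Summed FPKM was lower in knockout than in wild type liver. Rescaling moved the median log2 difference of all liver genes from −0.02 to 0.14 and the share of higher genes among those past the limit from 53.1% to 79.2%. After rescaling Angptl4 passed the limit (log2 0.64), Fgf21 was at 2.20, Ppara at −0.24 and Acadm at −0.03, and no sign of a gene with at least 1 FPKM turned. Albumin was listed at 0 in both genotypes with too little data, although liver produces it in quantity, so sums and zeros of this table can reflect failed estimates.

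Around these genes 98 others of the same pathways were read from 10 lists, and 89 reached 1 FPKM in liver. Of these 6 passed the limit higher and 7 lower in knockout, and their median was −0.10 beside −0.02 over all liver genes. The genes that were higher included Lpin1, a coactivator of PPAR-alpha and phosphatidate phosphatase, at 36.2 FPKM in wild type and 167 FPKM in knockout (4.603-fold). Igfbp1, a secreted protein repressed by insulin, was 28.8 and 75.8 FPKM (2.63-fold). Abcd2, a peroxisomal fatty acid transporter, was 8.18 and 18.1 FPKM, Tat, a tyrosine aminotransferase of fasting liver, 1289 and 2301 FPKM, and Plin5, a lipid droplet coat protein, 20.9 and 31.9 FPKM. These 5 come from 4 lists, of coregulators, glucose production and insulin response, peroxisomal oxidation and PPAR-alpha targets.

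Lower in knockout liver were Vnn1, a pantetheinase and PPAR-alpha target, with 26.3 FPKM in wild type and 7.17 FPKM in knockout (3.63-fold lower), and Acot3, a peroxisomal relative of Acot1, with 23.1 and 7.80 FPKM (2.94-fold lower). Acot4, another relative, was 16.5 and 10.5 FPKM (1.56-fold lower). Reads can be shared among these near copies, so the levels of Acot3 and Acot4 are as uncertain as that of Acot1. The fat-cell receptor Pparg was 14.5 and 7.19 FPKM (2.00-fold lower) and Rxrg, which encodes a partner of PPAR receptors, 5.14 and 2.83 FPKM. G6pc, which releases glucose from liver, was 425 and 261 FPKM, and Srebf1, a regulator of fatty acid synthesis, 273 and 178 FPKM. PPAR-alpha targets and relatives of the 9 genes were thus 3 lower and 1 higher of 11 that reached 1 FPKM. None of the 14 mitochondrial beta-oxidation enzymes passed the limit, with 3 of 14 above 0 and a median of −0.10, or 10 of 14 and 0.06 after rescaling. Nor did any of 12 uptake and activation genes, 6 other genes of the carnitine shuttle and malonyl-CoA, or 5 genes of ketone bodies. The kinase Pdk1 was 88.1 and 59.3 FPKM (log2 −0.57), and Pdk4 contributed 1.41% and 1.81% of the summed Pdk1 to Pdk4 level. Klb, the coreceptor for FGF21, was 27.8 and 23.7 FPKM (log2 −0.23). Skeletal muscle fibre markers summed to 1.92 and 1.82 FPKM in liver and Adipoq, which marks fat cells, was at most 0.0240 FPKM. Of the 8 white adipocyte markers 3 reached 1 FPKM in liver, Fabp4, Cidec and Pck1, and none passed the limit. The list summed to 1696 and 2358 FPKM, most of it Pck1 at 1672 and 2328 FPKM, which is also in the glucose production list.

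**Figure D2:**
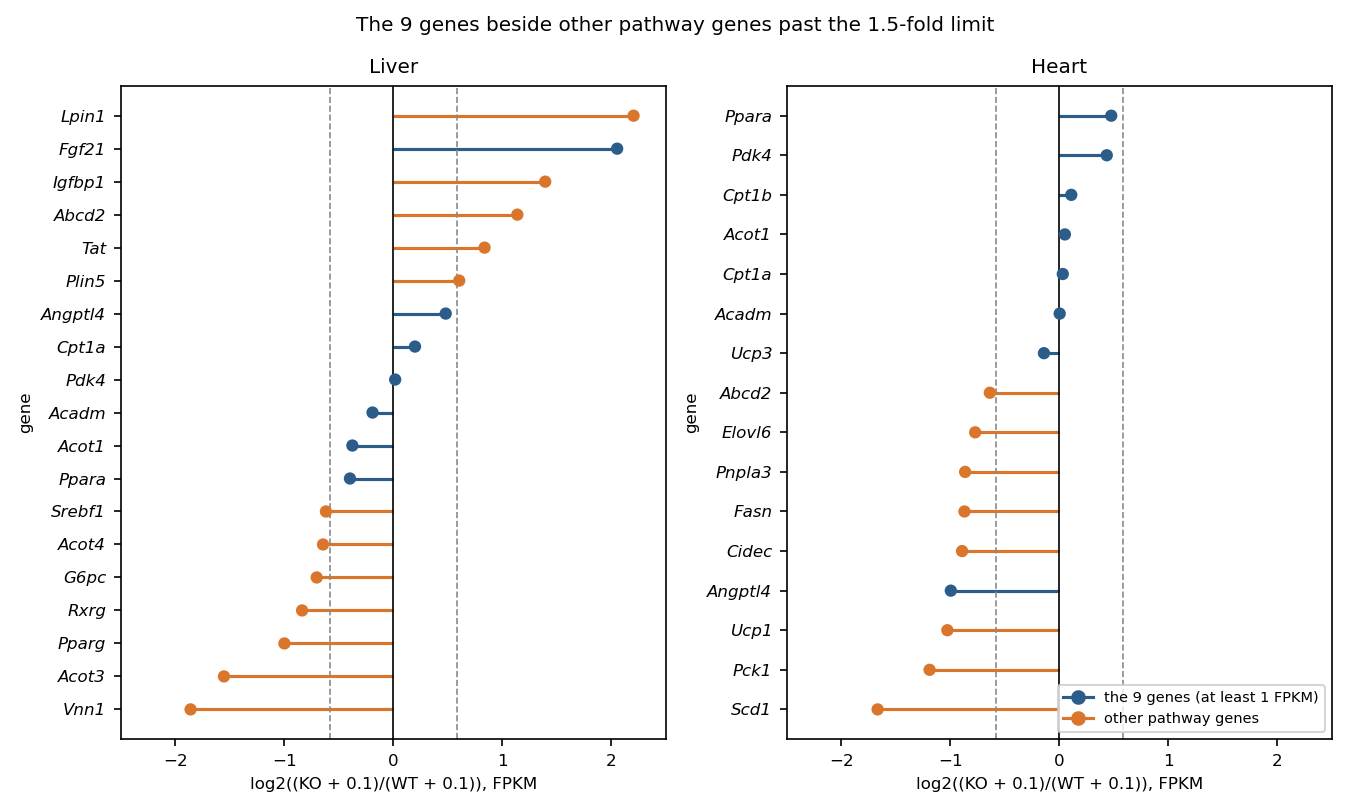
Difference between genotypes in liver and heart, as log2((KO + 0.1)/(WT + 0.1)); blue, those of the 9 genes that reached 1 FPKM; orange, the other pathway genes past the limit, up to 12 per tissue; dashed lines, 1.5-fold. In liver Fgf21 lies beside Lpin1 at the upper end and in heart Angptl4 lies among genes that were lower in knockout.

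In heart 1 of the 9 genes passed the limit, and it was Angptl4, with 6.80 FPKM in wild type and 3.36 FPKM in knockout (1.99-fold lower, log2 −0.996). Of 12864 heart genes at 1 FPKM or more, 0.925% were more than 1.5-fold higher and 1.76% lower, and genes higher in knockout made up 34.5% of those past the limit, 21.5% after rescaling and 52.6% among genes with at least 5 FPKM, so the lower majority did not hold at higher levels. Angptl4 lies between 33773750 and 33781830 of chromosome 17 (GRCm38, minus strand). Its log2 value was above 0 in liver, eyes, prostate and testes, and past the limit in the last 2 of these. The difference between tissues was not tested.

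Of the heart's own fuel genes, Acadm, Cpt1b, Cpt1a, Acot1 and Ucp3 were close between genotypes. Acadm was 712 and 713 FPKM, and Cpt1b was 249 and 269 FPKM (log2 0.11). Cpt1a was 19.7 and 20.1 FPKM, Acot1 was 5.49 and 5.69 FPKM, and Ucp3 was 33.7 and 30.5 FPKM (log2 −0.14). Ppara, at 13.3 and 18.5 FPKM (log2 0.48), and Pdk4, at 118 and 159.6 FPKM (log2 0.43), had the largest values above 0, in the opposite direction to Ppara in liver, and their sizes were larger than those of 95.7% and 94.9% of heart genes. Fgf21 was 0.0442 and 0.0130 FPKM. The signs of Cpt1a, Acadm and Acot1 turned after rescaling, from log2 sizes of at most 0.05.

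Of the 98 further pathway genes, 81 reached 1 FPKM in heart, and 8 were past the limit, all lower in knockout, with a median over the list of 0.05 beside 0.03 over all heart genes. Scd1, the stearoyl-CoA desaturase, was 80.6 and 25.3 FPKM (3.18-fold lower). Fasn, the fatty acid synthase, was 25.7 and 14.02 FPKM, Elovl6, an elongase, 1.45 and 0.806 FPKM, and Pnpla3, a lipase-family protein of fed liver and fat, 1.03 and 0.522 FPKM. These 4 make fatty acids or respond to feeding, and they came from 11 measured genes of the fed-state list. Of these 11, 4 lay above 0, none past the limit, and the median of the list was −0.30. Pck1, phosphoenolpyruvate carboxykinase, was 21.2 and 9.23 FPKM, Cidec, a lipid droplet protein, 18.0 and 9.66 FPKM, Ucp1, the uncoupling protein of brown fat, 18.1 and 8.83 FPKM, and Abcd2 2.34 and 1.47 FPKM. All 14 mitochondrial beta-oxidation enzymes lay slightly above 0, with a median of 0.06 and none past the limit, but after rescaling 5 of 14 lay above 0 and the median was −0.02. The long-chain enzymes Acadvl, at 569 and 601 FPKM, and Acadl, at 587 and 619 FPKM, were among them. Pdk4 made up 33.5% of the summed Pdk1 to Pdk4 level in wild type and 37.9% in knockout heart.

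Most markers of white fat cells and skeletal muscle fibres were lower along with Angptl4 in heart. Of 8 white adipocyte markers 7 reached 1 FPKM and 6 of them were past the limit lower, Adipoq being 21.0 and 9.23 FPKM, and the summed level was 1555 and 1394 FPKM, most of it Fabp4, which heart vessels also express. None was at 0. Of 11 skeletal muscle fibre markers 9 were past the limit lower, with a median log2 of −3.58; the sums of 1386 and 1408 FPKM were carried by Ckm, which heart muscle shares. Cidec and Pck1 are also white adipocyte markers. Ucp1 is a brown adipocyte marker, and of the 4 in that list that reached 1 FPKM it alone passed the limit. The median of these 4 was −0.12, and 1 of them, Ppargc1a, lay above 0 at 23.3 and 29.4 FPKM. Cardiomyocyte markers, 8 of 8 measured, had none past the limit and sums of 35979 and 36906 FPKM. The part of these other cell types in the Angptl4 difference was not tested.

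**Figure D3:**
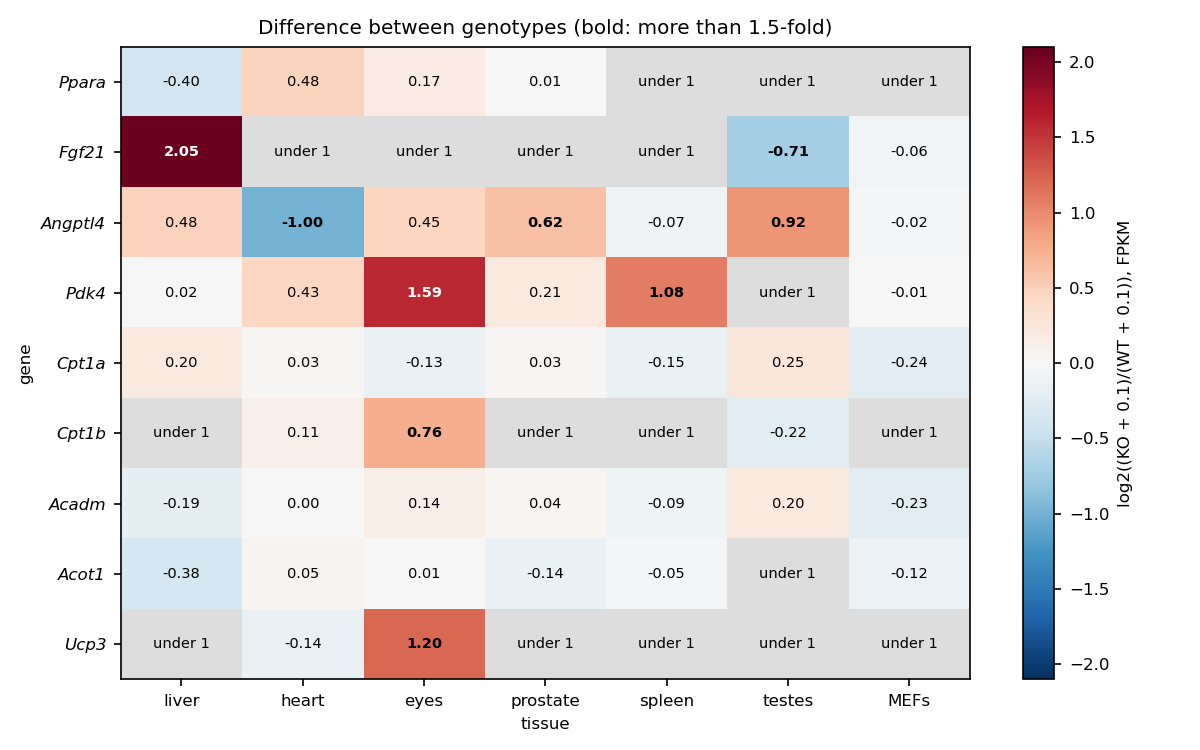
Difference between genotypes of the 9 genes in 7 tissues, as log2((KO + 0.1)/(WT + 0.1)) in numbers and colour; bold, past 1.5-fold; grey, under 1 FPKM in both genotypes. The 9 bold cells are spread over liver, heart, eyes, prostate, spleen and testes, 3 of them in eyes, and none is in MEFs.

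In eyes 3 of the 9 genes passed the limit, all higher in knockout, where 2.79% of 14453 eye genes were more than 1.5-fold higher and 0.948% lower. Pdk4 was 4.23 FPKM in wild type and 12.9 FPKM in knockout (3.01-fold higher, log2 1.59). Ucp3 was 1.93 and 4.57 FPKM (2.30-fold higher, log2 1.20). Cpt1b was 8.77 and 14.9 FPKM (1.69-fold higher, log2 0.76). These are the genes of the 9 that were highest in wild type heart along with Acadm, which was 65.6 and 72.4 FPKM in eyes. Cpt1a, the form that is not specific to muscle, was 33.8 and 30.8 FPKM. Pdk4 made up 7.28% of the summed Pdk1 to Pdk4 level in wild type eyes and 18.3% in knockout. The remaining members measured were Angptl4, at 2.12 and 2.95 FPKM (log2 0.45), Ppara, at 3.42 and 3.87 FPKM, and Acot1, at 1.42 and 1.43 FPKM, while Fgf21 did not reach 1 FPKM.

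**Figure D4:**
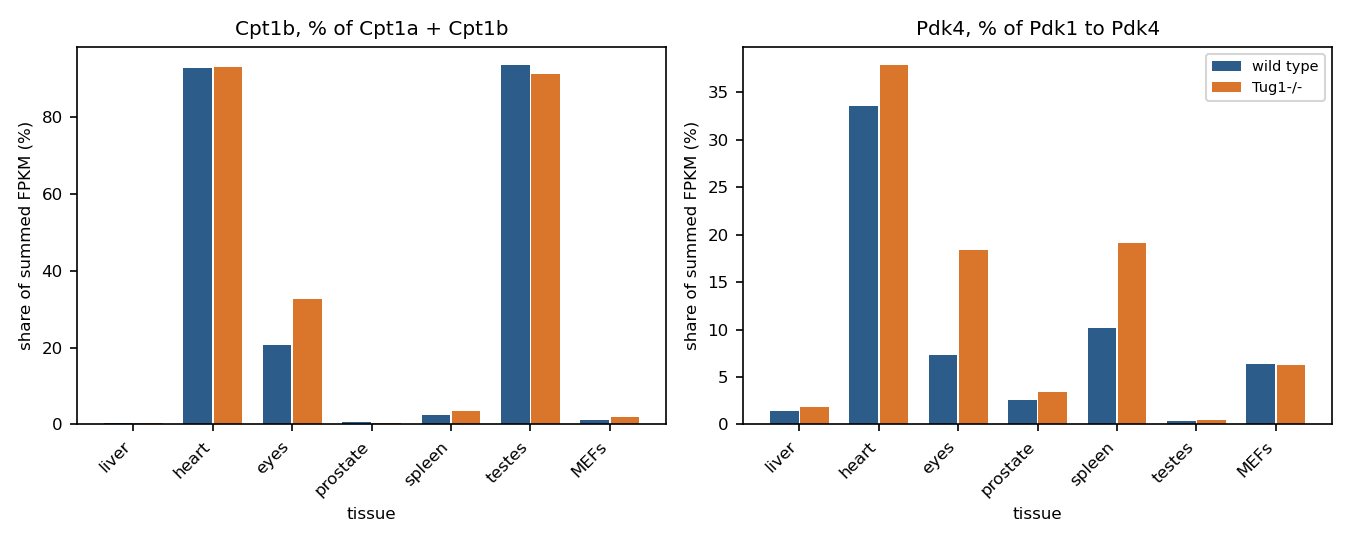
Share of Cpt1b in the summed FPKM of Cpt1a and Cpt1b (left) and of Pdk4 in the sum of Pdk1 to Pdk4 (right), in percent, for wild type (blue) and knockout (orange), 1 combined value each. Cpt1b makes up over 90% only in heart and testes, and the Pdk4 share goes from 7.28% to 18.3% in eyes and from 10.1% to 19.2% in spleen between wild type and knockout.

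In GRCm38, Pdk4 spans 5483351 to 5496309 of chromosome 6 and Cpt1b 89416405 to 89425863 of chromosome 15, both on the minus strand, while Ucp3 spans 100472990 to 100486432 of chromosome 7 on the plus strand. The loci given with the deposited values are longer for Cpt1b, which ends at 89430868, and for Ucp3, which begins at 100372232. Overlaps with other genes were not searched in these added stretches. Eye samples also differed in muscle and fat markers. Of 11 skeletal muscle fibre markers 10 passed the limit, all higher, the median log2 was 0.83, and the summed level was 3016 FPKM in wild type and 5431 FPKM in knockout, with none at 0. All 8 white adipocyte markers passed it, all higher, with sums of 120.2 and 437 FPKM and a median of 1.60. Eye muscles and orbital fat surround the globe, and the sources used here do not say how the eyes were trimmed. Of 79 further pathway genes at 1 FPKM or more, 13 passed the limit, all higher, led by Cidec (5.54 and 24.7 FPKM), Pck1 (3.73 and 9.36 FPKM), Pparg (1.19 and 3.05 FPKM) and Lpl, the lipase that Angptl4 inhibits (15.0 and 33.4 FPKM). Cidec and Pck1 are also in the white adipocyte list and so are counted in both. All 14 beta-oxidation enzymes lay above 0 in eyes, with a median of 0.39, and 1 of them, Acads, passed the limit at 7.24 and 11.2 FPKM; the median over all eye genes was −0.02. The part of muscle and fat tissue in the Pdk4, Ucp3 and Cpt1b values was not tested.

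In spleen Pdk4 alone of the 5 genes that reached 1 FPKM passed the limit, with 3.58 FPKM in wild type and 7.66 FPKM in knockout (2.11-fold higher, log2 1.08). The background there was the highest of the 7 tissues, 5.15% of 12785 genes being more than 1.5-fold higher and 1.27% lower. Pdk4 made up 10.1% and 19.2% of the summed kinases. Skeletal muscle markers summed to 12.1 and 12.9 FPKM in spleen and white adipocyte markers to 17.5 and 23.5 FPKM, with none past the limit higher and 1 muscle marker, Tnnt3, lower (1.37 and 0.880 FPKM). Only 3 of the 11 muscle and 2 of the 8 adipocyte markers reached 1 FPKM there, so these counts rest on 5 genes. Angptl4 was 5.53 and 5.26 FPKM, Cpt1a 24.2 and 21.9 FPKM, Acadm 24.9 and 23.4 FPKM and Acot1 1.41 and 1.36 FPKM. Ucp3, at 0.548 and 0.885 FPKM, stayed under 1 FPKM. Of 70 further pathway genes 3 were past the limit higher and 1 lower, among them the acyl-CoA synthetases Acsl6 (0.485 and 1.39 FPKM) and Acsl1 (9.85 and 15.2 FPKM).

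In prostate Angptl4 alone of 6 measured genes passed the limit, at 1.71 and 2.68 FPKM (1.54-fold higher, log2 0.62), where 2.76% of 12359 genes were higher and 0.793% lower. White adipocyte markers accompanied it, 7 of 8 reaching 1 FPKM and all 7 past the limit higher, with sums of 75.03 and 287 FPKM. Cidec, Pck1 and Thrsp were among 10 of 73 further pathway genes past the limit, all higher, and Cyp4a12a, a fatty acid hydroxylase, led them with 1.14 and 5.88 FPKM. Cidec and Pck1 are also among the white adipocyte markers and so are counted in both lists. Cpt1a (18.2 and 18.5 FPKM), Acadm (27.6 and 28.3 FPKM), Acot1 (11.6 and 10.5 FPKM), Pdk4 (1.36 and 1.59 FPKM) and Ppara (1.396 and 1.402 FPKM) were within 1.5-fold. Only 2 knockout samples stand behind the prostate values. The part of fat tissue in the Angptl4 value was not tested.

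**Figure D5:**
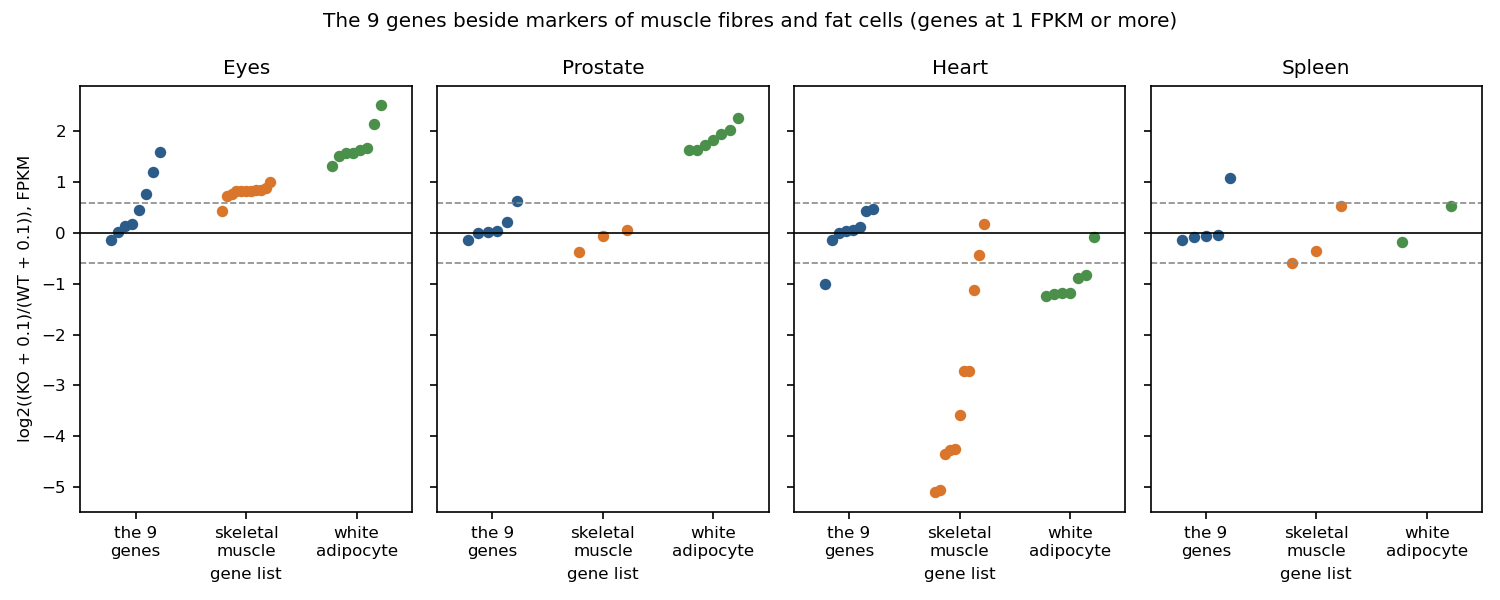
Difference between genotypes, as log2((KO + 0.1)/(WT + 0.1)), of those of the 9 genes (blue), of 11 skeletal muscle fibre markers (orange) and of 8 white adipocyte markers (green) that reached 1 FPKM; each point is a gene, and dashed lines mark 1.5-fold. Both marker lists lie above 0 in eyes, the adipocyte list also in prostate, and most markers lie below 0 in heart.

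In testes 2 of 5 measured genes passed the limit, in opposite directions, where 1.36% of 15400 genes were higher and 0.961% lower. Angptl4 was 0.956 FPKM in wild type and 1.90 FPKM in knockout (1.89-fold higher), and Fgf21 was 1.89 and 1.12 FPKM (1.64-fold lower). Both levels were near 1 FPKM. With a pseudocount of 1 FPKM both fell within the limit, at log2 0.57 and −0.45. Genes higher in knockout made up 58.7% of those past the limit, 76.0% after rescaling and 70.0% after centring. Cpt1b, the main form in testes, was 149 and 128 FPKM (log2 −0.22), Cpt1a 10.3 and 12.2 FPKM and Acadm 8.99 and 10.3 FPKM. None of 71 further pathway genes passed the limit. Of 8 white adipocyte markers 2 reached 1 FPKM, with none above 0 or past the limit, and the list summed to 8.45 and 8.87 FPKM. All 7 male germ cell markers reached 1 FPKM, with none above 0 or past the limit. Their median was −0.21 and their sums were 44369 and 38335 FPKM. The part of germ cells in the Cpt1b value was not tested.

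In MEFs none of the 6 measured genes passed the limit, where 1.15% of 11727 genes were higher and 2.5% lower. The share of higher genes among those past the limit was 31.5%, or 43.0% after rescaling. Fgf21 was 1.37 and 1.31 FPKM, Angptl4 6.59 and 6.49 FPKM and Pdk4 1.84 and 1.84 FPKM, and all 3 signs turned after rescaling. Cpt1a, at 16.0 and 13.6 FPKM, and Acadm, at 20.7 and 17.6 FPKM, had log2 values of −0.24 and −0.23. Of 63 further pathway genes 2 were lower past the limit, Vnn1 (2.55 and 1.33 FPKM) and Fabp3 (8.07 and 5.28 FPKM).

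Other genes with the most similar pattern were sought among 16767 genes with a mean of at least 1 FPKM, by Pearson's r of log2(FPKM + 0.1) over the 14 values of 7 tissues and 2 genotypes. The genotypes of a tissue give nearly the same point, so r describes mainly the order of tissues. Acadm was followed most closely by Acadvl (r = 0.983), the very long-chain enzyme of the same pathway, then by Mpc1 and Clybl. Ppara was nearest to Aox1 (0.979), Gpam and Ldhd, and Cpt1a to 5830462I19Rik (0.989), Ssfa2 and Cyp4v3. Fsd2 (0.986) and Rapgef3 (0.980) were among the closest to Ucp3, and Cpt1b was nearest to Asb12 (0.983), Gm15469 and Asb15. Pdk4 was nearest to Apold1 (0.968), Acot1 to Dhrs7 (0.980) and Angptl4 to Slc25a32 (0.977). Fgf21 had the least close partner of the 9, Rad54l2 (0.945). Between the 9 genes themselves r ranged from 0.87 for Cpt1a with Angptl4 to −0.60 for Fgf21 with Ucp3.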

How the data were processed

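Polyadenylated RNA had been made into unstranded libraries with the TruSeq RNA Sample Preparation Kit v2. The submitters' processing notes name CASAVA 1.8.2, TopHat2, Cuffdiff and mm10; the study's methods describe a different route, through counts, for its own calls. The deposited table has the layout of a Cuffdiff comparison. Its value columns were taken as FPKM, a unit that the deposited header does not name, with replicates combined by the authors. The authors' own fold changes, test statistics, p-values, q-values and significance marks fill 5 further columns and were not used. Adult brain was not analysed here.

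Differences were log2((KO + 0.1)/(WT + 0.1)), counted past 1.5-fold among genes with at least 1 FPKM in either genotype. The table holds no value per sample, so no test was run; the depth is unknown. The 9 genes and the pathway and marker lists were chosen with earlier results of these data known. Named genes were the 9, their family relatives, markers, the 3 nearest patterns per gene, and the largest differences of the pathway lists, up to 12 in liver and heart and 4 in each other tissue; Acads in eyes was named after its values were seen, and a few genes that the rule names are not reported here. Alternatives were pseudocounts of 1 and 0.01 FPKM, no filter or 5 FPKM, limits of 2-fold and 1.25-fold, rescaling to a total of 1000000 and centring on the median. Gene positions came from GENCODE vM21 (GRCm38) and promoter windows from RefSeq (GRCm38.p6). The steps were tested on simulated data. Python 3.11.15, numpy 2.4.6, pandas 2.3.3 and matplotlib 3.10.9 were used.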

Additional observations from a re-analysis of the deposited data

How the results depend on the processing

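No paired analysis was possible because the deposited table holds 1 combined value per genotype and tissue; for the same reason no fit without a replicate could be made. The 9 combinations of gene and tissue past the limit became 5 with a filter of 5 FPKM, 4 with a limit of 2-fold and 15 with the lower fold limit. The single gene of the 9 in liver became 2 after rescaling and 4 at the lower limit, and the single gene in heart became 0 at 2-fold and 3 at the lower limit. The 13 further pathway genes in liver became 5 at 2-fold and 26 at the lower limit. The 8 in heart became 5 with a pseudocount of 1 FPKM, 5 with a filter of 5 FPKM and 3 at 2-fold. All other counts stayed within 1.5 times. Of the 45 differences at 1 FPKM or more, 42 kept their side of the limit with a pseudocount of 1 FPKM, 44 after rescaling, and 45 both with a pseudocount of 0.01 FPKM and after centring. The exceptions among these were Angptl4 in prostate (log2 0.44), Angptl4 in testes (0.57) and Fgf21 in testes (−0.45) at the higher pseudocount, and Angptl4 in liver (0.64) after rescaling. Of the 18 under 1 FPKM, which were never counted, the size crossed 1.5-fold in 8 with a pseudocount of 0.01 FPKM, 2 after rescaling and 1 with a pseudocount of 1 FPKM. No counted difference past the limit turned its sign. Depth and replicate error are unknown, which limits every value and most of all those near 1 FPKM.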
